A study of Homo sapiens with 10 samples.

Results

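Proteins bound for secretion or for a membrane enter the endoplasmic reticulum (ER) as they are made and leave it in coated vesicles. The signal recognition particle binds the signal peptide and brings the ribosome to its receptor, the SEC61 translocon threads the chain through the membrane, and the signal peptidase cuts the signal off. COPII coats then carry cargo from the ER to the Golgi, COPI coats bring escaped proteins back, and cargo receptors choose what is loaded. Myeloma cells derive from plasma cells, which are known for a very large secretory apparatus. The genes described here are 55 members of this route, chosen by their known role and divided into 6 steps. Each was represented by a single probe set, the one with the highest mean over the 10 arrays among those annotated with only that gene. Of the 55 members, 53 had such a probe set, out of 19775 genes measured, and SEC61G and KDELR2 had none and are named only.

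The arrays came from MM.1S, a human multiple myeloma cell line, infected with lentivirus that carried a short hairpin RNA. All groups share this line and the lentiviral infection, and total RNA was taken at 48 h. The control group, shLuc, carried a hairpin against luciferase. The groups shHDAC3#1 and shHDAC3#2 carried different hairpins against HDAC3, a histone deacetylase, and shDNMT1#1 and shDNMT1#2 carried different hairpins against DNMT1, the enzyme that maintains DNA methylation. Each of the 5 groups had 2 arrays. The labels call shLuc the control of the HDAC3 hairpins, and nothing in them tells whether the 2 arrays of a group had cultures of their own. The p-values below therefore rest on array-to-array spread alone, and that spread may be technical. In a bulk sample, fewer cells with a transcript and less of it per cell cannot be told apart.

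The targets moved as labelled. HDAC3 read 7.26 and 6.61 in shLuc, 5.97 and 5.72 in shHDAC3#1 and 5.83 and 5.52 in shHDAC3#2, on the log2 scale of the RMA signal used throughout. DNMT1 read 8.49 and 8.33 in shLuc, 5.76 and 6.0 in shDNMT1#1 and 6.27 and 6.07 in shDNMT1#2. DNMT1 also fell in shHDAC3#1 and shHDAC3#2, by 1.20 and 0.65, and HDAC3 fell in shDNMT1#2 by 0.60. Array pairs of a group correlated at 0.9937 to 0.9963 over all genes. Plasma cell markers had medians of 9.29 to 9.81 across the groups, T cell markers 4.75 to 4.99, myeloid markers 5.99 to 6.11 and stromal markers 5.93 to 6.08. Single markers overlapped between these lists. In shLuc the means ran from 3.74 (CD27) to 13.21 for plasma cell markers and from 4.29 to 8.45 (COL1A1) for stromal ones. T cell markers ran from 4.21 to 6.54 and myeloid ones from 3.82 to 6.83. Epithelial or packaging cell markers had medians of 5.80 to 6.06. With shDNMT1#2, EPCAM (by 0.63) and KRT18 rose and CDH2 fell among these 6 genes, with a median change of 0.29. Of the 11 plasma cell markers, 5 fell and 1 rose with shDNMT1#1 and 6 fell and 2 rose with shDNMT1#2, while 4 fell and 1 rose with shHDAC3#1 and 2 fell with shHDAC3#2. In the same order, 6.81%, 15.2%, 16.6% and 9.54% of all genes fell, and 1.34%, 11.6%, 7.83% and 1.31% rose. Among genes with a mean of at least 8, 15.7%, 39.8%, 41.0% and 22.7% fell. The part of these markers in the members' changes was not tested.

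Promoters of the members are shown because a motif of the secretory stress response recurs in them. The motif is the core of the unfolded protein response element (UPRE), TGACGTGG, through which XBP1 and ATF6 are known to act. RefSeq promoters on GRCh38.p14, from 250 bases before to 50 after the start site, were at hand for 49 members. A match on either strand was found in 12 of these 49 genes (24.5%), in 256 of 35116 promoters of all genes (0.729%) and in 166 of 15843 protein-coding genes (1.05%). The 12 were SRP19, SEC62, SSR3, SSR4, SEC16A, SEC23A, SEC24A, ARF1, COPA, COPB1, COPB2 and KDELR3. The longer ER stress element, CCAAT and CCACG with 9 bases of any kind between them, shares the letters CCACG with the reverse complement of the core. It was matched in 0 of the 49, and CCAAT alone in 23 (46.9%, near the 42.1% of protein-coding genes). The following lines give part of the promoter of SRP19 (chr5:112861151-112861206, plus strand), SEC62 (chr3:169966766-169966806, plus strand), SSR3 (chr3:156554135-156554190, minus strand), SSR4 (chrX:153794515-153794570, plus strand) and COPB1 (chr11:14499828-14499883, minus strand), because the first 4 cover signal recognition and the translocon and COPB1 fell with all 4 hairpins. Each is read 5′ to 3′ along the gene's strand, and capitals mark the core, here on the opposite strand to the gene.
SRP19: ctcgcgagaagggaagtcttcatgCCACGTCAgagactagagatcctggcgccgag
SEC62: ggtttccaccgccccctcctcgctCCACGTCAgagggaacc
SSR3: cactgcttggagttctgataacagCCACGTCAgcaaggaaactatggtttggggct
SSR4: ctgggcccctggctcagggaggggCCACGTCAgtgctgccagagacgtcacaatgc
COPB1: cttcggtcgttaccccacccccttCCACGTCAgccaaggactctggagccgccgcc

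Changes are differences of group means on the log2 scale. A gene is said to fall or rise where limma's two-sided test, adjusted by the Benjamini-Hochberg method over all 19775 genes, gave a p under 0.05. Errors are limma's standard errors (SE), for 2 arrays against 2 with a single hairpin. A knockdown is the mean of its 2 hairpins, so 4 arrays. Changes listed together are in the order shHDAC3#1, shHDAC3#2, shDNMT1#1, shDNMT1#2, each against the same 2 shLuc arrays, which all of these comparisons share.

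With shHDAC3#1, 40 of the 53 members fell, where 16.6% of all genes did. With shHDAC3#2, 24 fell, where 9.54% of all genes did. In neither comparison did a member pass the limma test upwards, where 7.83% and 1.31% of all genes rose. Of the members, 43 and 35 had an unadjusted p under 0.05 in either direction, beside 7409 and 4073 of all 19775 genes. Among the 2926 genes with a mean of at least 8, 1883 and 1167 did, beside 34 and 27 of the 40 such members. The median change of the members was -0.48 and -0.33, beside 0.06 and 0.05 over all genes. With shDNMT1#1, 10 members fell and 1 rose, against 6.81% and 1.34% of all genes, with a median of -0.11. With shDNMT1#2, 23 fell and 3 rose, against 15.2% and 11.6% of all genes, with a median of -0.25.

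Taken as knockdown means, 38 members fell with HDAC3 knockdown, where 15.3% of all genes fell and 3.96% rose. With DNMT1 knockdown 21 fell and 2 rose, where 13.5% of all genes fell and 6.66% rose. When arrays of a hairpin were treated as related, by a random block in limma, 0 members passed in either knockdown, and 28 and 14 had an unadjusted p under 0.05. These unadjusted counts are given without the share of all genes under that model, so they are not a result about the members. All 4 HDAC3 arrays lay below both shLuc arrays for 36 of the 53 members (67.9%), where this held for 15.8% of all genes and 33.8% of genes with a mean of at least 8. All 4 DNMT1 arrays did so for 18 members (34.0%), beside 13.9% of all genes and 33.2% of those bright genes, so the latter share was near the members'. The member medians were -0.41 and -0.17. The 5 members that fell with all 4 hairpins (9.43%, beside 3.18% of all genes and 7.59% of the bright ones) were SRP9 of the signal recognition particle, SPCS1 of the signal peptidase, SEC23B and SAR1A of the COPII coat, and COPB1 of the COPI coat.

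**Figure D1:**
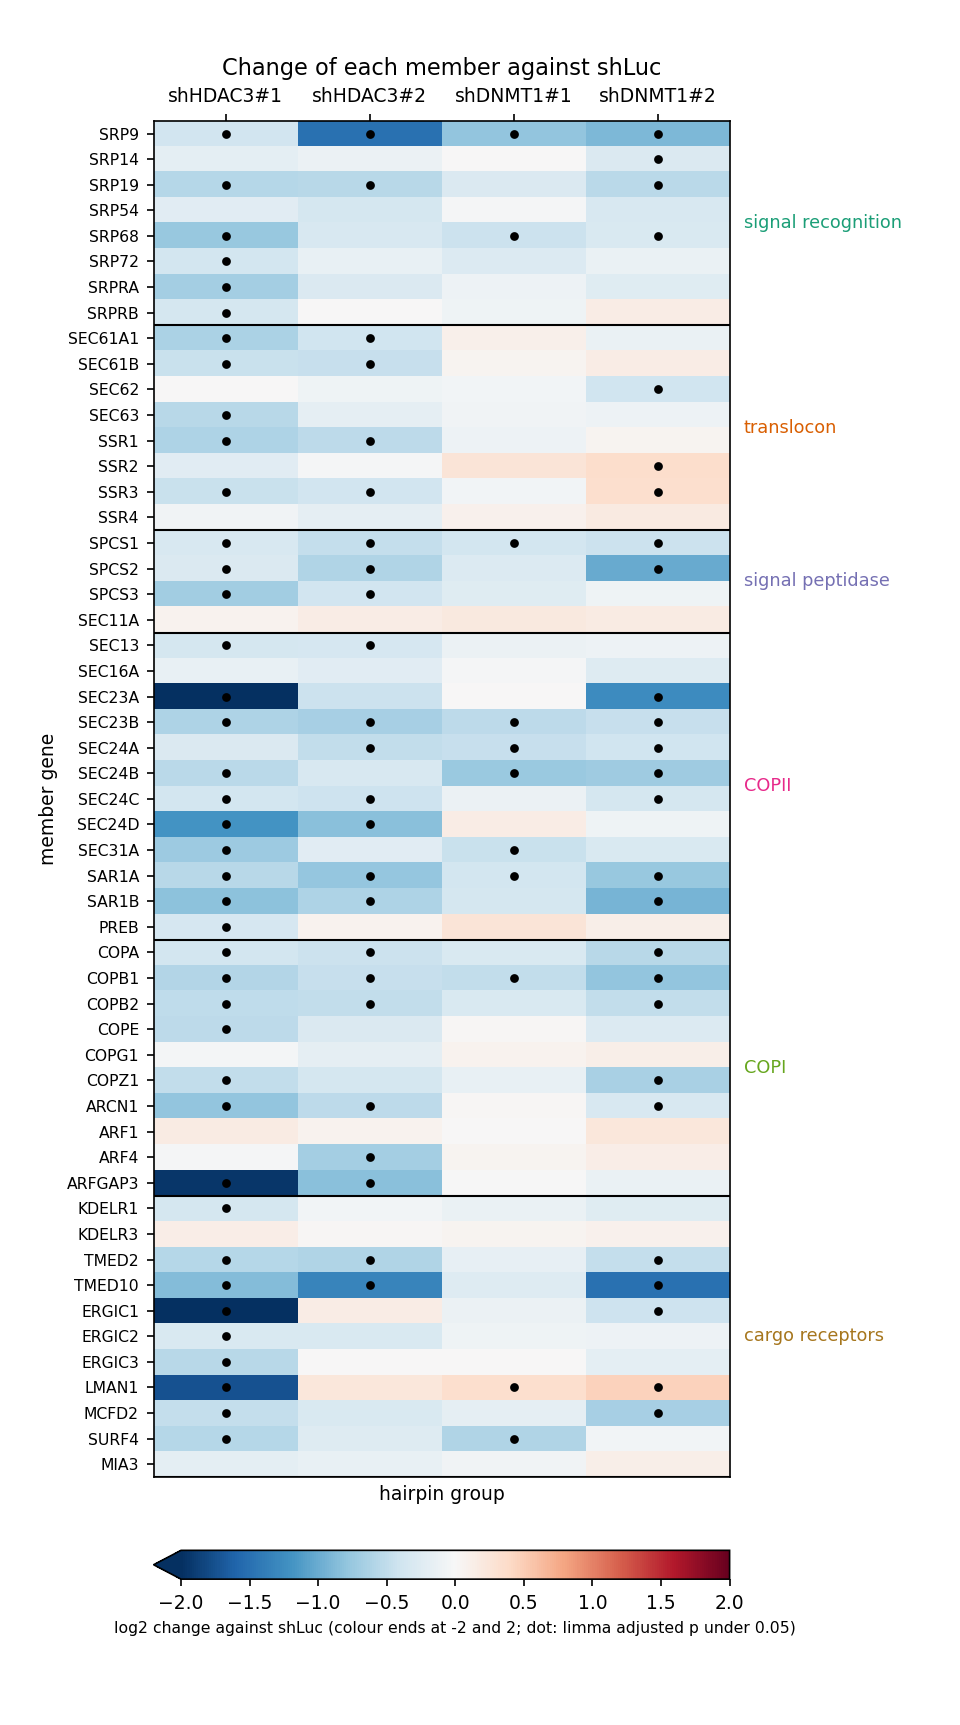
Log2 change of each of the 53 measured members (vertical axis, ordered by step) in each hairpin group against shLuc (horizontal axis). Colour gives the change and ends at -2 and 2, and a dot marks a limma adjusted p under 0.05. The shHDAC3#1 column holds 40 dots, all on falls, while the translocon rows of the DNMT1 columns hold 3 dots, for SEC62, SSR2 and SSR3.

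Most members are bright, and more bright genes fell than rose with each hairpin. The median change of the bright genes was -0.17, -0.04, -0.03 and -0.15 with the hairpins in turn. Of the members, 40 had a mean of at least 8, as did 2926 genes in all. Of those 40, 30 fell with HDAC3 knockdown (75.0%), where 37.4% of the 2926 genes fell and 4.44% rose. With DNMT1 knockdown 18 of the 40 fell (45.0%) and 2 rose, where 34.9% fell and 5.26% rose. With shHDAC3#1, 31 of the 40 fell, where 41.0% of the bright genes fell and 9.23% rose. With shHDAC3#2, 19 fell, where 22.7% fell and 2.63% rose. For shDNMT1#1 the members gave 9 falls and 1 rise, beside 15.7% and 2.56% of the bright genes. For shDNMT1#2 they gave 18 falls and 3 rises, beside 39.8% and 6.29%, so the members' share of falls in this group was near that of bright genes. The median change of all genes with a mean between 9 and 10 was -0.26 in both knockdowns. Between 8 and 9 it was -0.08 with HDAC3 and -0.05 with DNMT1 knockdown, and from 10 upwards -0.13 and -0.08. The spread of the probe set values was 1.94 and 1.93 (SD) on the shLuc arrays and 1.84 to 1.91 on the other 8, and the part of this in the members' changes was not tested beyond a further quantile normalization, which gave every array the same spread. After it, 29 members fell and 2 rose with HDAC3 knockdown, while 21.7% of the bright genes fell and 31.0% rose. For DNMT1 knockdown it gave 15 falls and 12 rises, in place of 21 and 2, with a median of -0.04, while 22.2% of the bright genes fell and 28.6% rose. With shHDAC3#1 it gave 33 falls and 3 rises (bright genes 24.9% and 34.7%), and with shHDAC3#2 20 and 4 (15.3% and 13.4%). With shDNMT1#1 it gave 10 falls and 3 rises (11.8% and 8.61%), and with shDNMT1#2 13 and 15 (24.3% and 33.3%). The member medians stayed below 0 in these 4 comparisons, at -0.26, -0.21, -0.02 and -0.08.

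How many members passed also moved with a single control array, as it did over all genes. Without shLuc replicate 1, 25 members passed with shHDAC3#1, 14 with shHDAC3#2, 3 with shDNMT1#1 and 17 with shDNMT1#2, 22 with HDAC3 knockdown and 8 with DNMT1 knockdown. The shares of all genes that passed were then 10.1%, 5.1%, 2.65%, 11.1%, 7.13% and 6.9%. The median change of the members stayed below 0 in each of these, at -0.45, -0.29, -0.07, -0.21, -0.34 and -0.14. Without shHDAC3#1 replicate 1, 26 passed with that hairpin. Without shHDAC3#2 replicate 1, 12 passed with that hairpin, and without shDNMT1#1 replicate 2, 7 passed with that one.

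**Figure D2:**
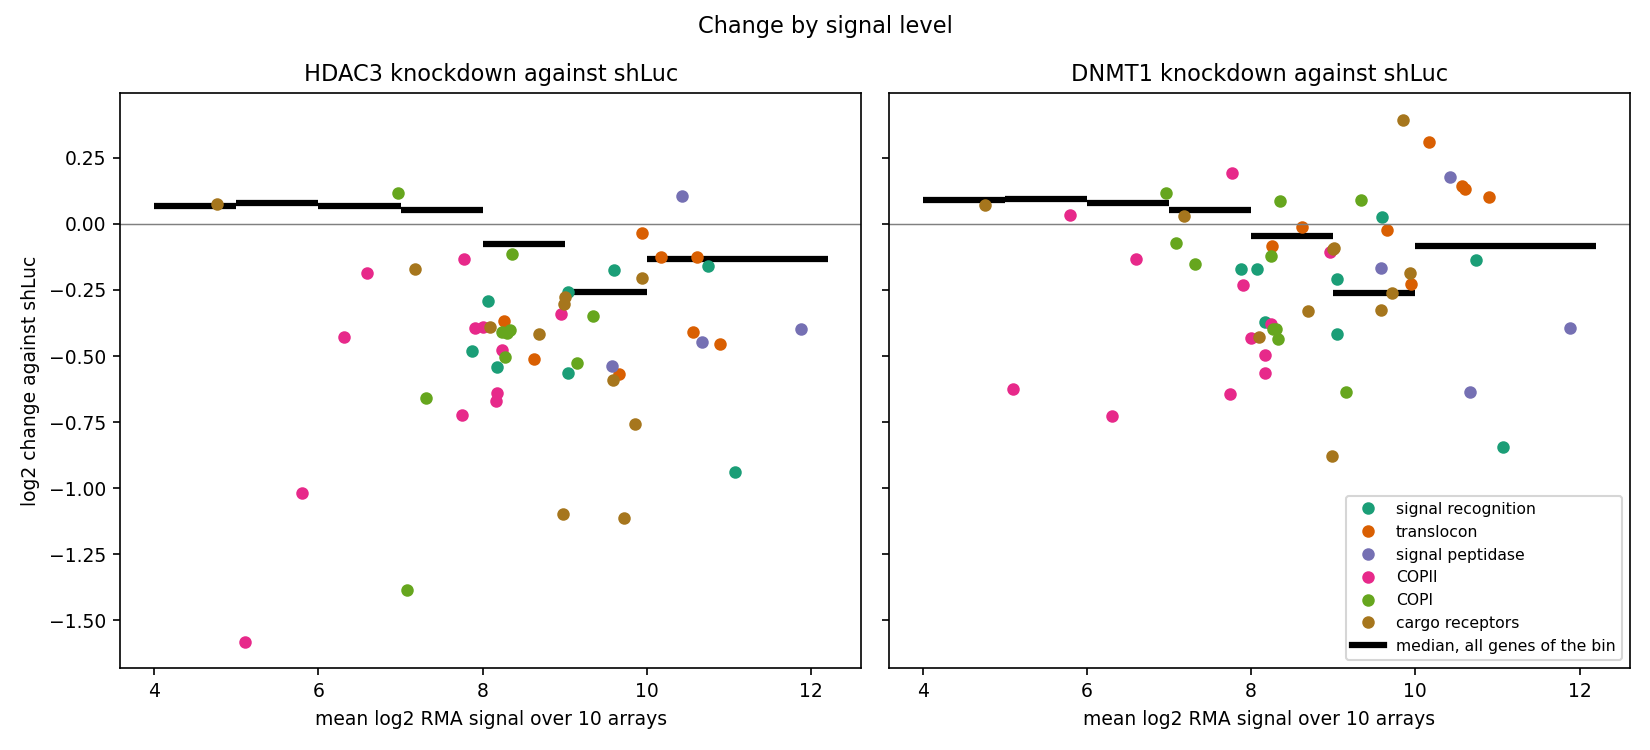
Log2 change against shLuc (vertical axis) by mean log2 RMA signal over the 10 arrays (horizontal axis) for each member (points, coloured by step), for HDAC3 knockdown on the left and DNMT1 knockdown on the right. Black bars give the median of all genes in each range of signal, which is lowest between 9 and 10, at -0.26 in both. The median of the 53 members is -0.41 on the left and -0.17 on the right.

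In the signal recognition step, 8 of 8 members were measured. Of these, 6 fell with shHDAC3#1, 2 with shHDAC3#2, 2 with shDNMT1#1 and 4 with shDNMT1#2, and none passed upwards. SRP9, which with SRP14 pauses elongation until the ribosome is docked, read 11.77 and 11.79 in shLuc, 11.34 and 11.46 in shHDAC3#1, 10.20 and 10.36 in shHDAC3#2, 11.01 and 10.97 in shDNMT1#1, and 10.92 and 10.86 in shDNMT1#2. Every knockdown array was below both controls, and the shHDAC3#2 pair stood lowest with no overlap with any other group. Its changes were -0.38, -1.50, -0.79 and -0.89 (each ± 0.08 SE), with adjusted p of 0.0023, 2.7e-10, 1.9e-06 and 7.9e-08, and shHDAC3#2 left it at 35.4% of the control signal. SRP14, its partner in the particle, changed by -0.20, -0.12, 0.01 and -0.29, of which the last was a fall.

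SRP19, which helps to load SRP54 onto the particle's RNA, read 9.50 and 9.37 in shLuc, 8.81 and 8.92 in shHDAC3#1, 8.83 and 8.93 in shHDAC3#2, 9.18 and 9.12 in shDNMT1#1, and 8.99 and 8.79 in shDNMT1#2. All 8 knockdown arrays were below both controls, with the shDNMT1#1 pair nearest to them. It changed by -0.57, -0.56, -0.29 and -0.55 (each ± 0.10 SE, adjusted p 0.00013, 0.00031, 0.074 and 0.0002). SRP68, a subunit that binds the RNA together with SRP72, read 8.67 and 8.40 in shLuc, 7.79 and 7.77 in shHDAC3#1, 8.13 and 8.29 in shHDAC3#2, 8.19 and 8.01 in shDNMT1#1, and 8.29 and 8.17 in shDNMT1#2. The shHDAC3#1 pair was lowest and the other 6 knockdown arrays lay between it and the controls. SRP68 fell by 0.76 with shHDAC3#1 (± 0.11 SE, adjusted p 1.9e-05), by 0.44 with shDNMT1#1 and by 0.31 with shDNMT1#2, while its change of -0.33 with shHDAC3#2 had an adjusted p of 0.055.

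SRPRA, the receptor subunit that meets the particle at the ER, read 8.29 and 7.98 in shLuc, 7.38 and 7.55 in shHDAC3#1, 7.74 and 7.95 in shHDAC3#2, 8.11 and 7.96 in shDNMT1#1, and 8.02 and 7.77 in shDNMT1#2. The DNMT1 arrays overlapped the controls and the HDAC3 arrays did not. It fell by 0.67 with shHDAC3#1 (± 0.12 SE, adjusted p 0.00026). A second SRPRA probe set, with a mean of 7.10, changed by -0.07 there. SRPRB, which anchors SRPRA in the membrane, changed by -0.35 with shHDAC3#1, a fall, and by 0.00, -0.09 and 0.14 with the others. SRP72 fell by 0.37 with shHDAC3#1, and SRP54, the subunit that binds the signal peptide, did not pass the test with any hairpin (-0.23, -0.35, -0.02 and -0.32).

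In the translocon, SEC61A1, SEC61B, SSR1 and SSR3 fell with both HDAC3 hairpins by their chosen probe sets. SEC63 fell with shHDAC3#1 only, and SEC62, SSR2 and SSR4 fell with neither. Of the 8 measured translocon members, 5 thus fell with shHDAC3#1 and 4 with shHDAC3#2. With shDNMT1#1 none passed limma's test in either direction (1 of the 8 had an unadjusted p under 0.05), and with shDNMT1#2 1 fell and 2 rose. Without probe sets that can cross-hybridize, 2 of 7 fell with each HDAC3 hairpin, with medians of -0.24 and -0.17 in place of -0.44 and -0.28. SEC61A1, which forms the pore, read 8.92 and 8.74 in shLuc, 8.20 and 8.21 in shHDAC3#1, 8.40 and 8.47 in shHDAC3#2, 9.02 and 8.85 in shDNMT1#1, and 8.68 and 8.72 in shDNMT1#2. All 4 HDAC3 arrays were below the other 6. SEC61A1 fell by 0.63 and 0.39 with the HDAC3 hairpins (each ± 0.10 SE, adjusted p 4.6e-05 and 0.0077), while its changes with the DNMT1 hairpins were 0.11 and -0.13. A second SEC61A1 probe set, with a mean of 8.57, changed by -0.86, -0.57, -0.02 and -0.37.

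SEC61B, the small beta subunit of the channel, read 10.99 and 11.08 in shLuc, 10.55 and 10.64 in shHDAC3#1, 10.45 and 10.68 in shHDAC3#2, 11.12 and 11.05 in shDNMT1#1, and 11.22 and 11.16 in shDNMT1#2. Again the 4 HDAC3 arrays were lowest, and the shDNMT1#2 pair was above both controls. Its changes were -0.44, -0.47, 0.05 and 0.15 (each ± 0.09 SE, adjusted p 0.00096, 0.00092, 0.79 and 0.21). SEC63, which works with SEC62 to admit some precursors and docks the chaperone BiP, read 8.54 and 8.34 in shLuc, 7.75 and 8.01 in shHDAC3#1, 8.24 and 8.29 in shHDAC3#2, 8.48 and 8.26 in shDNMT1#1, and 8.47 and 8.20 in shDNMT1#2. It fell by 0.56 with shHDAC3#1 (± 0.12 SE, adjusted p 0.0012). The shHDAC3#2 pair lay just below the controls, and the DNMT1 arrays overlapped them. SEC62 itself fell by 0.40 with shDNMT1#2 (adjusted p 0.0054) and changed by 0.01, -0.09 and -0.06 with the others. Its probe sets disagreed for shHDAC3#1, where a second one, with a mean of 9.20, changed by -0.51. With the DNMT1 hairpins that probe set changed by -0.29 and -0.75, while a dimmer one, with a mean of 6.33, changed by 0.19 and 0.29.

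The 4 SSR genes encode the TRAP complex, which sits beside the channel and helps chains with weak signals to enter. SSR1 read 9.87 and 9.93 in shLuc, 9.27 and 9.30 in shHDAC3#1, 9.25 and 9.49 in shHDAC3#2, 9.92 and 9.66 in shDNMT1#1, and 10.07 and 9.84 in shDNMT1#2. The HDAC3 arrays did not overlap any other group, and the DNMT1 arrays spread around the controls. Its changes were -0.61, -0.53, -0.11 and 0.06 (each ± 0.11 SE, adjusted p 0.00019, 0.0015, 0.59 and 0.69), and 5 further SSR1 probe sets changed by -0.88 to -0.44 with shHDAC3#1. Those further probe sets changed by -0.43 to -0.18 with shDNMT1#1 and by -0.32 to 0.29 with shDNMT1#2. SSR3 read 10.63 and 10.72 in shLuc, 10.19 and 10.28 in shHDAC3#1, 10.22 and 10.36 in shHDAC3#2, 10.55 and 10.70 in shDNMT1#1, and 11.06 and 10.96 in shDNMT1#2. It thus lay below the controls on the HDAC3 arrays and above them on the shDNMT1#2 pair. It fell by 0.44 and 0.38 with the HDAC3 hairpins and rose by 0.34 with shDNMT1#2 (each ± 0.09 SE, adjusted p 0.00087, 0.0054 and 0.0077). Further SSR3 probe sets, with means of 8.33, 6.92 and 6.53, changed by -0.73, -0.48 and 0.27 with shHDAC3#1, and the last, the only one not of the cross-hybridizing kind, thus went the other way. The same probe sets changed by -0.29, -0.15 and 0.04 with shDNMT1#1 and by 0.05, 0.36 and 0.39 with shDNMT1#2. SSR2 rose by 0.35 with shDNMT1#2 (adjusted p 0.0046), and SSR4 did not pass with any hairpin (-0.07, -0.17, 0.09 and 0.17).

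**Figure D3:**
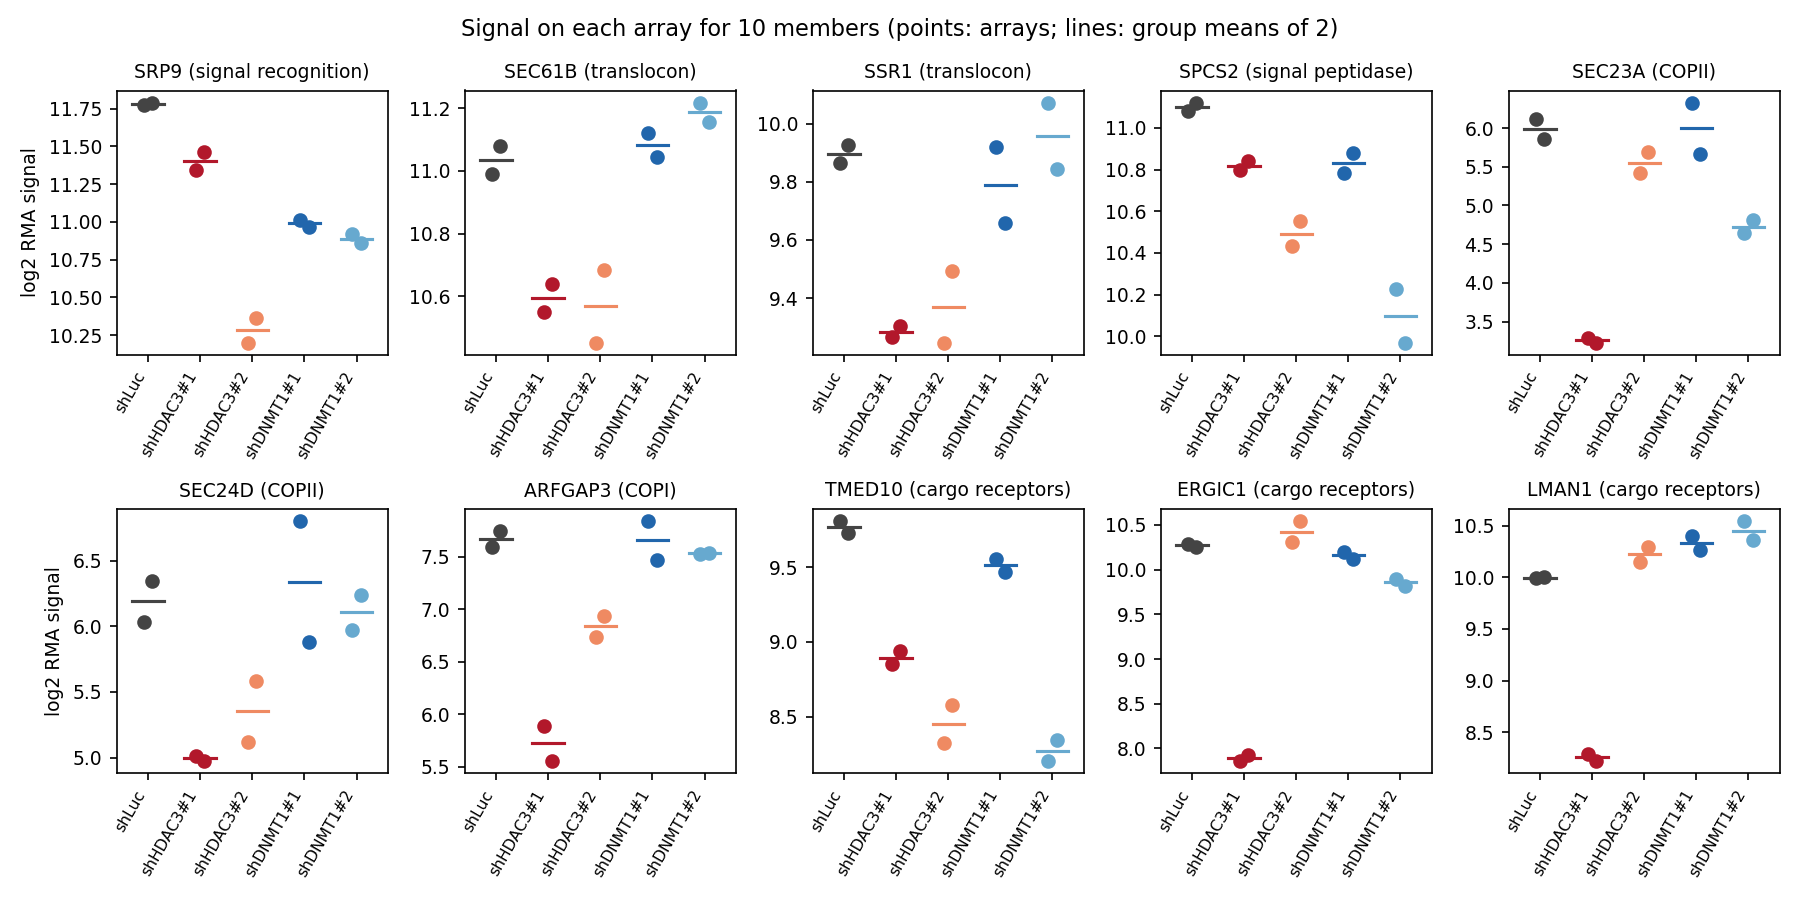
Log2 RMA signal (vertical axis, with its own range in each panel) on each of the 10 arrays for 10 members, by group (horizontal axis). Points are arrays and lines are means of 2. SEC61B and SSR1 are low on the HDAC3 arrays and near shLuc on the DNMT1 arrays, whereas SEC23A, ERGIC1 and LMAN1 are far lower in shHDAC3#1 than in shHDAC3#2.

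All 4 members of the signal peptidase were measured, and 3, 3, 1 and 2 of them fell with the hairpins in turn, where 41.0%, 22.7%, 15.7% and 39.8% of bright genes fell. SPCS1 read 12.22 and 12.17 in shLuc, 11.82 and 11.92 in shHDAC3#1, 11.63 and 11.81 in shHDAC3#2, 11.79 and 11.87 in shDNMT1#1, and 11.85 and 11.70 in shDNMT1#2. All 8 knockdown arrays lay below both controls. SPCS1 changed by -0.32, -0.47, -0.37 and -0.42 (each ± 0.09 SE, adjusted p 0.011, 0.00062, 0.0092 and 0.001). SPCS2 read 11.08 and 11.12 in shLuc, 10.80 and 10.84 in shHDAC3#1, 10.43 and 10.55 in shHDAC3#2, 10.78 and 10.88 in shDNMT1#1, and 10.22 and 9.97 in shDNMT1#2. Its lowest arrays were the shDNMT1#2 pair, at 49.8% of the control signal. The changes were -0.28, -0.61, -0.27 and -1.0 (each ± 0.09 SE, adjusted p 0.03, 7.1e-05, 0.078 and 4.7e-08), and a second bright probe set gave -0.39, -0.77, -0.36 and -1.04.

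SPCS3 read 9.90 and 9.81 in shLuc, 9.07 and 9.25 in shHDAC3#1, 9.41 and 9.56 in shHDAC3#2, 9.75 and 9.49 in shDNMT1#1, and 9.84 and 9.70 in shDNMT1#2. The HDAC3 pairs were below the controls without overlap, and 1 shDNMT1#2 array lay between the control values. It fell by 0.70 and 0.38 with the HDAC3 hairpins (each ± 0.10 SE, adjusted p 2.9e-05 and 0.017) and changed by -0.24 and -0.09 with the DNMT1 hairpins. This probe set can cross-hybridize. Further SPCS3 probe sets, with means of 7.75 and 7.03, changed by -0.54, -0.49, -0.26 and -0.15 and by -0.94, -0.74, -0.72 and -0.32. SEC11A, a catalytic subunit, changed by 0.07, 0.14, 0.19 and 0.16 and did not pass the test in any of the 4 comparisons.

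All 12 members of the COPII step were measured. Here 10 fell with shHDAC3#1, 7 with shHDAC3#2, 5 with shDNMT1#1 and 7 with shDNMT1#2, with medians of -0.55, -0.43, -0.23 and -0.38, and none passed upwards. These falls are 83.3%, 58.3%, 41.7% and 58.3% of the step, where 41.0%, 22.7%, 15.7% and 39.8% of bright genes fell. SEC23A, an inner coat subunit that turns off the GTPase SAR1, read 6.12 and 5.86 in shLuc, 3.29 and 3.23 in shHDAC3#1, 5.41 and 5.69 in shHDAC3#2, 6.33 and 5.67 in shDNMT1#1, and 4.64 and 4.81 in shDNMT1#2. The shHDAC3#1 pair was far below every other array, the shDNMT1#2 pair stood between it and the rest, and the shDNMT1#1 pair enclosed the controls. The change was -2.73 ± 0.17 SE with shHDAC3#1 (adjusted p 1.8e-10) and -1.26 ± 0.17 SE with shDNMT1#2 (adjusted p 7.8e-06). The shHDAC3#1 readings are lower than those of CD8A, a T cell marker, which read 4.10 to 4.50 over the 10 arrays, so the size of that change cannot be read as an exact fold. A second SEC23A probe set, with a mean of 4.86, changed by -0.57 and -0.10 in these comparisons, so the probe sets differ in the size of the change. SEC23B, its paralog, read 8.68 and 8.57 in shLuc, 7.90 and 8.12 in shHDAC3#1, 7.84 and 8.09 in shHDAC3#2, 8.38 and 7.82 in shDNMT1#1, and 8.15 and 8.18 in shDNMT1#2. Every knockdown array was below both controls, and the shDNMT1#1 pair enclosed the arrays of the other hairpins. SEC23B fell in each comparison, by 0.62, 0.66, 0.53 and 0.46 (each ± 0.14 SE, adjusted p 0.0021, 0.002, 0.017 and 0.016), although a second probe set, with a mean of 7.95, changed by -0.06 and 0.10 with the DNMT1 hairpins.

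The SEC24 proteins bind the sorting signals of cargo. SEC24D read 6.04 and 6.35 in shLuc, 5.02 and 4.97 in shHDAC3#1, 5.12 and 5.59 in shHDAC3#2, 6.80 and 5.88 in shDNMT1#1, and 5.97 and 6.24 in shDNMT1#2. The HDAC3 arrays were below all others, and the shDNMT1#1 arrays differed from each other by more than any other pair of this gene. SEC24D fell by 1.20 and 0.84 with the HDAC3 hairpins (each ± 0.21 SE, adjusted p 0.00018 and 0.0084). Its other 2 probe sets, with means of 3.78 and 3.40, were dim and did not show the fall. SEC24A and SEC24B fell with both DNMT1 hairpins, by 0.46 and 0.40 and by 0.74 and 0.71. Among the HDAC3 hairpins, SEC24A fell by 0.50 with shHDAC3#2, SEC24B fell by 0.53 with shHDAC3#1, and SEC24C fell by 0.37 and 0.42 with both.

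SAR1A and SAR1B are the GTPases that start a COPII coat. SAR1A read 8.77 and 8.54 in shLuc, 8.08 and 8.11 in shHDAC3#1, 7.80 and 7.96 in shHDAC3#2, 8.41 and 8.16 in shDNMT1#1, and 7.91 and 7.90 in shDNMT1#2. SAR1B read 8.33 and 8.26 in shLuc, 7.40 and 7.54 in shHDAC3#1, 7.48 and 7.87 in shHDAC3#2, 8.18 and 7.70 in shDNMT1#1, and 7.41 and 7.31 in shDNMT1#2. For both genes all 8 knockdown arrays were below the controls, and the shDNMT1#1 pair had the mean nearest to them. SAR1A fell by 0.56, 0.78, 0.37 and 0.75 (each ± 0.11 SE, adjusted p 0.00052, 2.5e-05, 0.033 and 1.8e-05), and another probe set of it, with a mean of 7.24, changed by -0.05 to 0.10. SAR1B fell by 0.82, 0.62 and 0.93 with shHDAC3#1, shHDAC3#2 and shDNMT1#2 (each ± 0.14 SE, adjusted p 0.00013, 0.0036 and 2.7e-05), and changed by -0.36 with shDNMT1#1 (adjusted p 0.13). A second SAR1B probe set, with a mean of 7.68, changed by -0.49, -0.09, -0.39 and -0.40. Dimmer ones, with means of 6.575 and 6.568, changed by -0.35, -0.19, -0.20 and -0.04 and by -0.63, -0.48, -0.31 and -0.72.

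PREB, the exchange factor that loads SAR1, changed by -0.34 with shHDAC3#1, a fall, and by 0.07, 0.26 and 0.12 with the others. Of the outer coat, SEC31A fell by 0.73 with shHDAC3#1 and by 0.45 with shDNMT1#1, and SEC13 fell by 0.35 and 0.33 with the HDAC3 hairpins. SEC16A, a scaffold of exit sites, did not pass with any hairpin (-0.15, -0.23, -0.02 and -0.25).

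In the COPI step, 10 of 10 members were measured, and 7, 6, 1 and 5 of them fell with the hairpins in turn, none passing upwards. Of bright genes, 41.0%, 22.7%, 15.7% and 39.8% fell, so the step's share with shDNMT1#1, 10.0%, was below theirs. COPB1, a coatomer subunit, read 9.64 and 9.59 in shLuc, 8.95 and 9.11 in shHDAC3#1, 9.11 and 9.21 in shHDAC3#2, 9.24 and 9.01 in shDNMT1#1, and 8.84 and 8.83 in shDNMT1#2. Each knockdown pair was below the controls, and the shDNMT1#2 pair was below all other arrays. Its changes were -0.59, -0.46, -0.49 and -0.78 (each ± 0.10 SE, adjusted p 9.8e-05, 0.0021, 0.0018 and 2.9e-06), and a second probe set gave -0.63, -0.50, -0.36 and -0.58. The coatomer subunits COPA and COPB2 fell with both HDAC3 hairpins and with shDNMT1#2, by 0.37, 0.43 and 0.56 and by 0.51, 0.50 and 0.49. COPZ1 fell by 0.48 with shHDAC3#1 and 0.65 with shDNMT1#2, COPE fell by 0.53 with shHDAC3#1, and COPG1 did not pass with any (-0.04, -0.19, 0.07 and 0.11).

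ARCN1, the delta subunit of coatomer, read 7.71 and 7.57 in shLuc, 6.86 and 6.83 in shHDAC3#1, 7.03 and 7.19 in shHDAC3#2, 7.81 and 7.51 in shDNMT1#1, and 7.40 and 7.24 in shDNMT1#2. The HDAC3 pairs were lowest and the shDNMT1#1 pair enclosed the controls. The falls were 0.79, 0.53 and 0.32 with shHDAC3#1, shHDAC3#2 and shDNMT1#2 (each ± 0.11 SE, adjusted p 2.4e-05, 0.003 and 0.043), and the change with shDNMT1#1 was 0.02. ARFGAP3, which makes ARF1 hydrolyse its GTP so that the coat can come off, read 7.59 and 7.74 in shLuc, 5.89 and 5.55 in shHDAC3#1, 6.74 and 6.94 in shHDAC3#2, 7.84 and 7.47 in shDNMT1#1, and 7.53 and 7.54 in shDNMT1#2. Both HDAC3 pairs were below every other array without overlapping each other. ARFGAP3 changed by -1.94, -0.83, -0.01 and -0.13 (each ± 0.13 SE, adjusted p 7.4e-10, 0.00012, 0.98 and 0.47), and the HDAC3 hairpins left 26.0% and 56.3% of the control signal.

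ARF4, a GTPase of the same family as ARF1, read 9.46 and 9.43 in shLuc, 9.37 and 9.47 in shHDAC3#1, 8.65 and 8.90 in shHDAC3#2, 9.57 and 9.44 in shDNMT1#1, and 9.64 and 9.50 in shDNMT1#2. The shHDAC3#2 pair was below every other array. ARF4 fell by 0.67 there (± 0.10 SE, adjusted p 4.5e-05), its second probe set changed by -0.70, and its change with shHDAC3#1 was -0.02. ARF1, which recruits coatomer to the membrane, did not pass with any hairpin (0.16, 0.07, 0.01 and 0.22).

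Of the cargo receptors, 11 of 12 were measured, and 9 fell with shHDAC3#1 and 2 with shHDAC3#2. With shDNMT1#1 1 fell and 1 rose, and with shDNMT1#2 4 fell and 1 rose. The falls with shHDAC3#2, 18.2%, and with shDNMT1#2, 36.4%, were near the 22.7% and 39.8% of bright genes. With shHDAC3#1 81.8% fell, beside 41.0%, and with shDNMT1#1 9.09%, beside 15.7%. LMAN1, a lectin that ferries glycoproteins with its partner MCFD2, read 9.99 and 10.00 in shLuc, 8.29 and 8.22 in shHDAC3#1, 10.15 and 10.29 in shHDAC3#2, 10.40 and 10.26 in shDNMT1#1, and 10.55 and 10.36 in shDNMT1#2. The shHDAC3#1 pair was far below every other array, and the other 6 knockdown arrays were above both controls. Its changes were -1.74, 0.22, 0.33 and 0.46 (each ± 0.09 SE, adjusted p 2.2e-11, 0.15, 0.025 and 0.0009), with further probe sets at -1.76 and -0.91 for shHDAC3#1. MCFD2 read 8.53 and 8.30 in shLuc, 7.79 and 8.09 in shHDAC3#1, 8.02 and 8.21 in shHDAC3#2, 8.34 and 8.13 in shDNMT1#1, and 7.80 and 7.70 in shDNMT1#2. It fell by 0.48 with shHDAC3#1 and by 0.67 with shDNMT1#2 (each ± 0.12 SE, adjusted p 0.0047 and 0.00019). Its lowest arrays were the shDNMT1#2 pair and 1 of shHDAC3#1, and all HDAC3 arrays were below both controls. A second probe set, with a mean of 7.67, changed by -0.01 and 0.06.

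ERGIC1, a membrane protein that cycles between the ER and the Golgi, read 10.29 and 10.25 in shLuc, 7.86 and 7.92 in shHDAC3#1, 10.31 and 10.54 in shHDAC3#2, 10.20 and 10.12 in shDNMT1#1, and 9.90 and 9.82 in shDNMT1#2. The shHDAC3#1 arrays lay more than 1 log2 unit below every other array. ERGIC1 fell by 2.38 with shHDAC3#1 (± 0.09 SE, adjusted p 3.9e-13), to 19.2% of the control signal, and by 0.41 with shDNMT1#2 (adjusted p 0.0021). With shHDAC3#2 its change was 0.15, and 2 further bright probe sets changed by -1.36 and -1.72 with shHDAC3#1. ERGIC2 and ERGIC3, its partners in the cycle, fell with shHDAC3#1 by 0.31 and 0.55. A second ERGIC2 probe set, with a mean of 8.68, changed by -0.54 there. For ERGIC3 the probe sets disagreed. Its second one, with a mean of 7.47, changed by 0.30 and 0.22 with the HDAC3 hairpins, where the chosen one changed by -0.55 and 0.00.

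TMED10, a p24 protein that helps to form vesicles and load cargo, read 9.81 and 9.73 in shLuc, 8.85 and 8.94 in shHDAC3#1, 8.32 and 8.58 in shHDAC3#2, 9.56 and 9.47 in shDNMT1#1, and 8.20 and 8.34 in shDNMT1#2. Both HDAC3 pairs and the shDNMT1#2 pair were far below the controls, and the shDNMT1#1 pair was slightly below them. Its changes were -0.87, -1.32, -0.26 and -1.50 (each ± 0.10 SE, adjusted p 1.1e-06, 9.5e-09, 0.13 and 4.8e-10), and a second bright probe set gave smaller ones of -0.62, -0.76, -0.30 and -0.44. TMED2, its partner, fell by 0.57, 0.61 and 0.48 with shHDAC3#1, shHDAC3#2 and shDNMT1#2.

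SURF4, a receptor for soluble cargo, read 9.10 and 8.88 in shLuc, 8.33 and 8.51 in shHDAC3#1, 8.61 and 8.84 in shHDAC3#2, 8.46 and 8.30 in shDNMT1#1, and 8.96 and 8.91 in shDNMT1#2. The shDNMT1#2 pair lay between the controls, while the shDNMT1#1 pair was as low as shHDAC3#1. SURF4 fell by 0.57 with shHDAC3#1 and by 0.61 with shDNMT1#1 (each ± 0.11 SE, adjusted p 0.00044 and 0.00066). The KDEL receptors return ER chaperones from the Golgi, and of them KDELR1 fell by 0.35 with shHDAC3#1 and KDELR3 was dim, with a mean of 4.76, and did not pass. MIA3, which exports bulky cargo such as collagen, did not pass with any hairpin (-0.19, -0.15, -0.07 and 0.12).

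The knockdowns were compared directly, without shLuc. Whether the arrays of both targets shared a run is not given, so a difference between runs cannot be told apart from one between targets. The same holds for the DNMT1 hairpins against shLuc. Between DNMT1 and HDAC3 knockdown, 20 of 53 members were higher with DNMT1 knockdown and 1 lower, where 6.0% of all genes were higher and 3.59% lower. Among the 40 bright members 14 were higher (35.0%), where 12.7% of bright genes were higher and 8.82% lower. For 12 members (22.6%) every DNMT1 array was above every HDAC3 array, beside 3.55% of all genes and 4.2% of the bright ones. With the hairpin as a random block limma called 0 members, and 16 had an unadjusted p under 0.05, among them 6 of the 8 translocon members. These unadjusted counts too lack the share of all genes under that model and are not a result about the members. By step, 7 of the 8 translocon members were higher, with 1 of 8 in signal recognition, 1 of 4 in the signal peptidase, 4 of 12 in COPII, 4 of 10 in COPI and 3 of 11 cargo receptors.

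The translocon differences were similar in size. DNMT1 minus HDAC3 knockdown was 0.50 ± 0.07 SE for SEC61A1 (n = 4 arrays each, adjusted p 2.6e-05), 0.55 ± 0.06 SE for SEC61B (adjusted p 3.2e-06), and 0.55, 0.43, 0.55 and 0.26 for SSR1, SSR2, SSR3 and SSR4. SEC63 differed by 0.28 (adjusted p 0.031). SEC62 went the other way, at -0.19 (adjusted p 0.1). The median over the 8 was 0.47, beside 0.02 over all genes. With shHDAC3#1 left out the median was 0.36 and 6 were higher, and with shDNMT1#2 left out it was 0.38 and 5 were higher. After further quantile normalization 7 were higher and SEC62 was lower, and without probe sets that can cross-hybridize 5 of 7 were higher and 1 lower. Against shLuc, 5 translocon members fell with HDAC3 knockdown (median -0.39), and with DNMT1 knockdown SSR2 rose and the median was 0.04, which became -0.01 when each array was centred on its median. Further quantile normalization turned the latter into 6 rises with a median of 0.22.

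Outside the translocon the larger differences were 1.32 ± 0.09 SE for ARFGAP3, 1.15 ± 0.07 SE for LMAN1, 1.05 ± 0.15 SE for SEC24D, 0.96 ± 0.12 SE for SEC23A and 0.85 ± 0.07 SE for ERGIC1. For ARFGAP3 and SEC24D both HDAC3 hairpins were low. For LMAN1, SEC23A and ERGIC1 it was the shHDAC3#1 pair: without it the difference became -0.19 for SEC23A (adjusted p 0.61) and -0.42 for ERGIC1 (adjusted p 0.0019). The member that was lower with DNMT1 knockdown was SEC24B, by 0.30 (adjusted p 0.034).

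**Figure D4:**
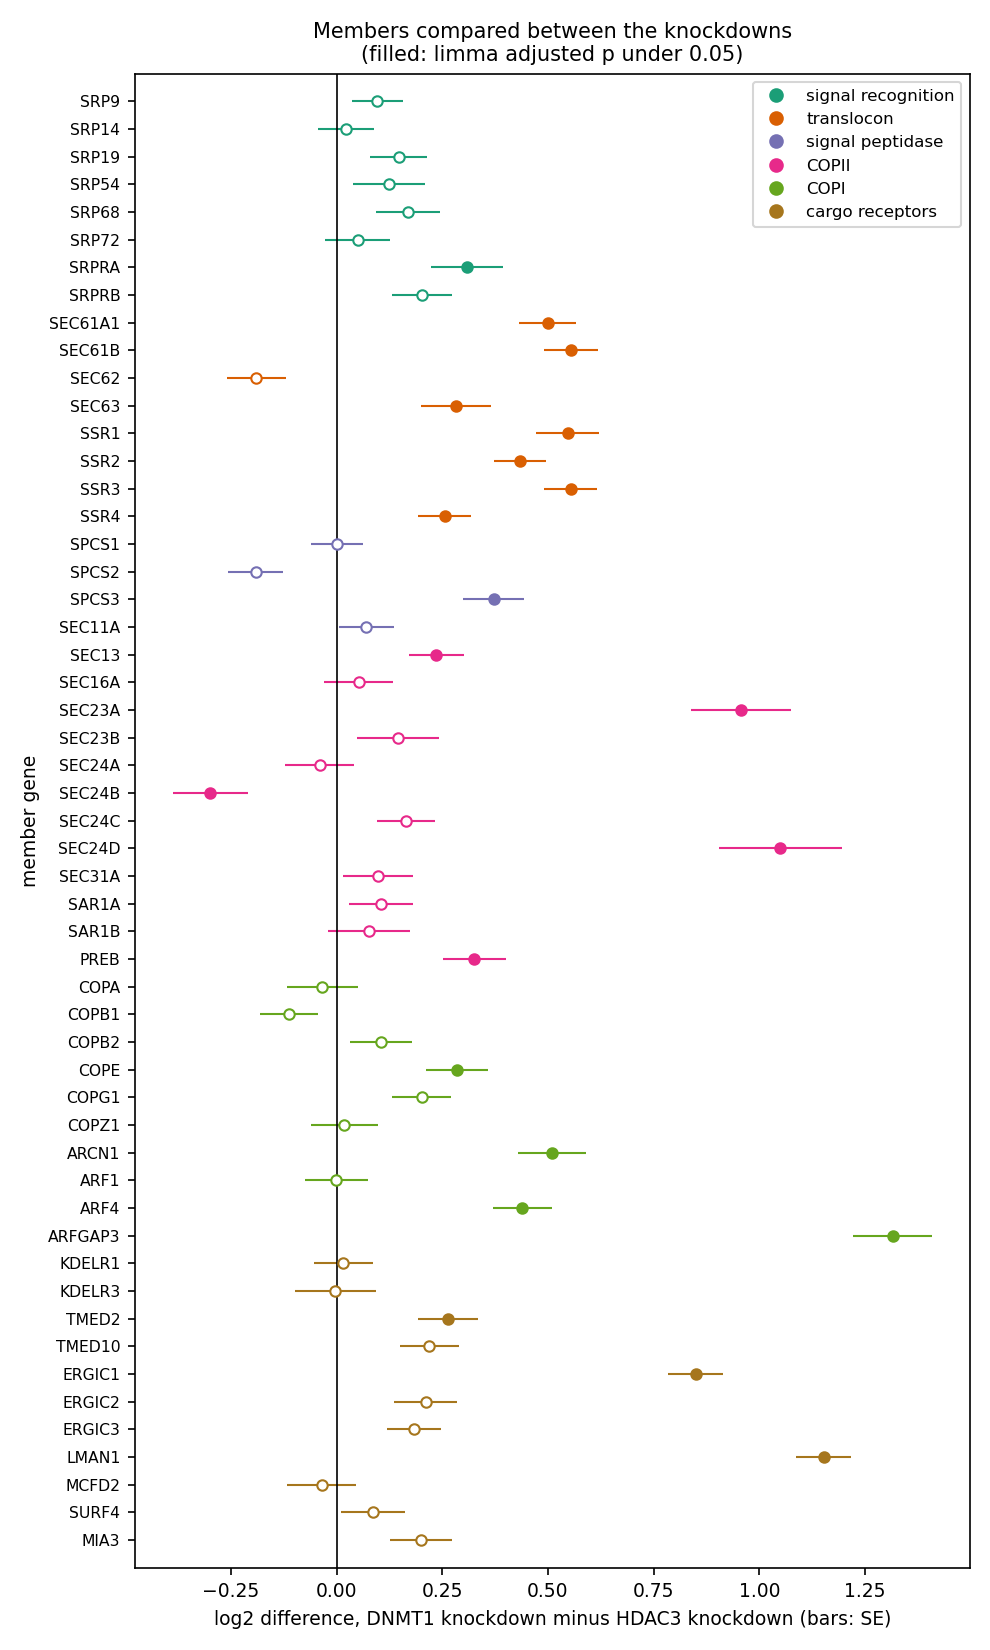
Difference between DNMT1 and HDAC3 knockdown (horizontal axis, log2, 4 arrays each) for the 53 members (vertical axis), with limma's SE as bars and filled points at an adjusted p under 0.05. The translocon members lie together between 0.26 and 0.55, apart from SEC62 at -0.19, and ARFGAP3, LMAN1 and SEC24D exceed 1.

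Hairpins against the same target differed from each other for some members. Between shHDAC3#2 and shHDAC3#1, 12 members were higher and 4 lower in shHDAC3#2, where 8.85% of all genes were higher and 3.75% lower. Of the bright members 8 were higher and 4 lower, where 22.7% of bright genes were higher and 7.25% lower. ERGIC1 differed by 2.53 ± 0.09 SE, SEC23A by 2.29 ± 0.17 SE, LMAN1 by 1.96 ± 0.09 SE and ARFGAP3 by 1.11 ± 0.13 SE, all lower in shHDAC3#1. SRP9 differed by -1.12 ± 0.08 SE and ARF4 by -0.65 ± 0.10 SE, lower in shHDAC3#2. SPCS2 and TMED10 were also lower in shHDAC3#2, by 0.33 and 0.44. Second probe sets differed by 0.57 for SEC23A, -0.38 for SPCS2 and -0.14 for TMED10. The shHDAC3#1 arrays had the largest difference between the 3′ and 5′ ACTB control probe sets of any group, 0.98 and 1.02 against 0.63 to 0.81 elsewhere. The part of RNA quality in these differences was not tested. Without shHDAC3#1 replicate 1 the number of members that differed was 9, and without shHDAC3#2 replicate 2 it was also 9. Further quantile normalization gave 11 higher and 6 lower, where 22.4% of bright genes were higher and 15.3% lower.

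Between shDNMT1#2 and shDNMT1#1, 10 members were lower and 2 higher in shDNMT1#2, where 8.39% of all genes were lower and 3.57% higher. Of the bright members 8 were lower and 2 higher, where 23.8% of bright genes were lower and 2.9% higher. SEC23A differed by -1.27 ± 0.17 SE, TMED10 by -1.24 ± 0.10 SE, SPCS2 by -0.73 ± 0.09 SE and SAR1B by -0.58 ± 0.14 SE. The next brightest probe set of each gave -0.36 for SEC23A, -0.14 for TMED10, -0.68 for SPCS2 and -0.02 for SAR1B. SURF4 and SSR3 were higher in shDNMT1#2, by 0.55 and 0.39. Without shDNMT1#1 replicate 1 the number was 4, and without shDNMT1#2 replicate 2 it was 6. Further quantile normalization gave 11 higher and 7 lower, where 14.2% of bright genes were higher and 16.9% lower.

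**Figure D5:**
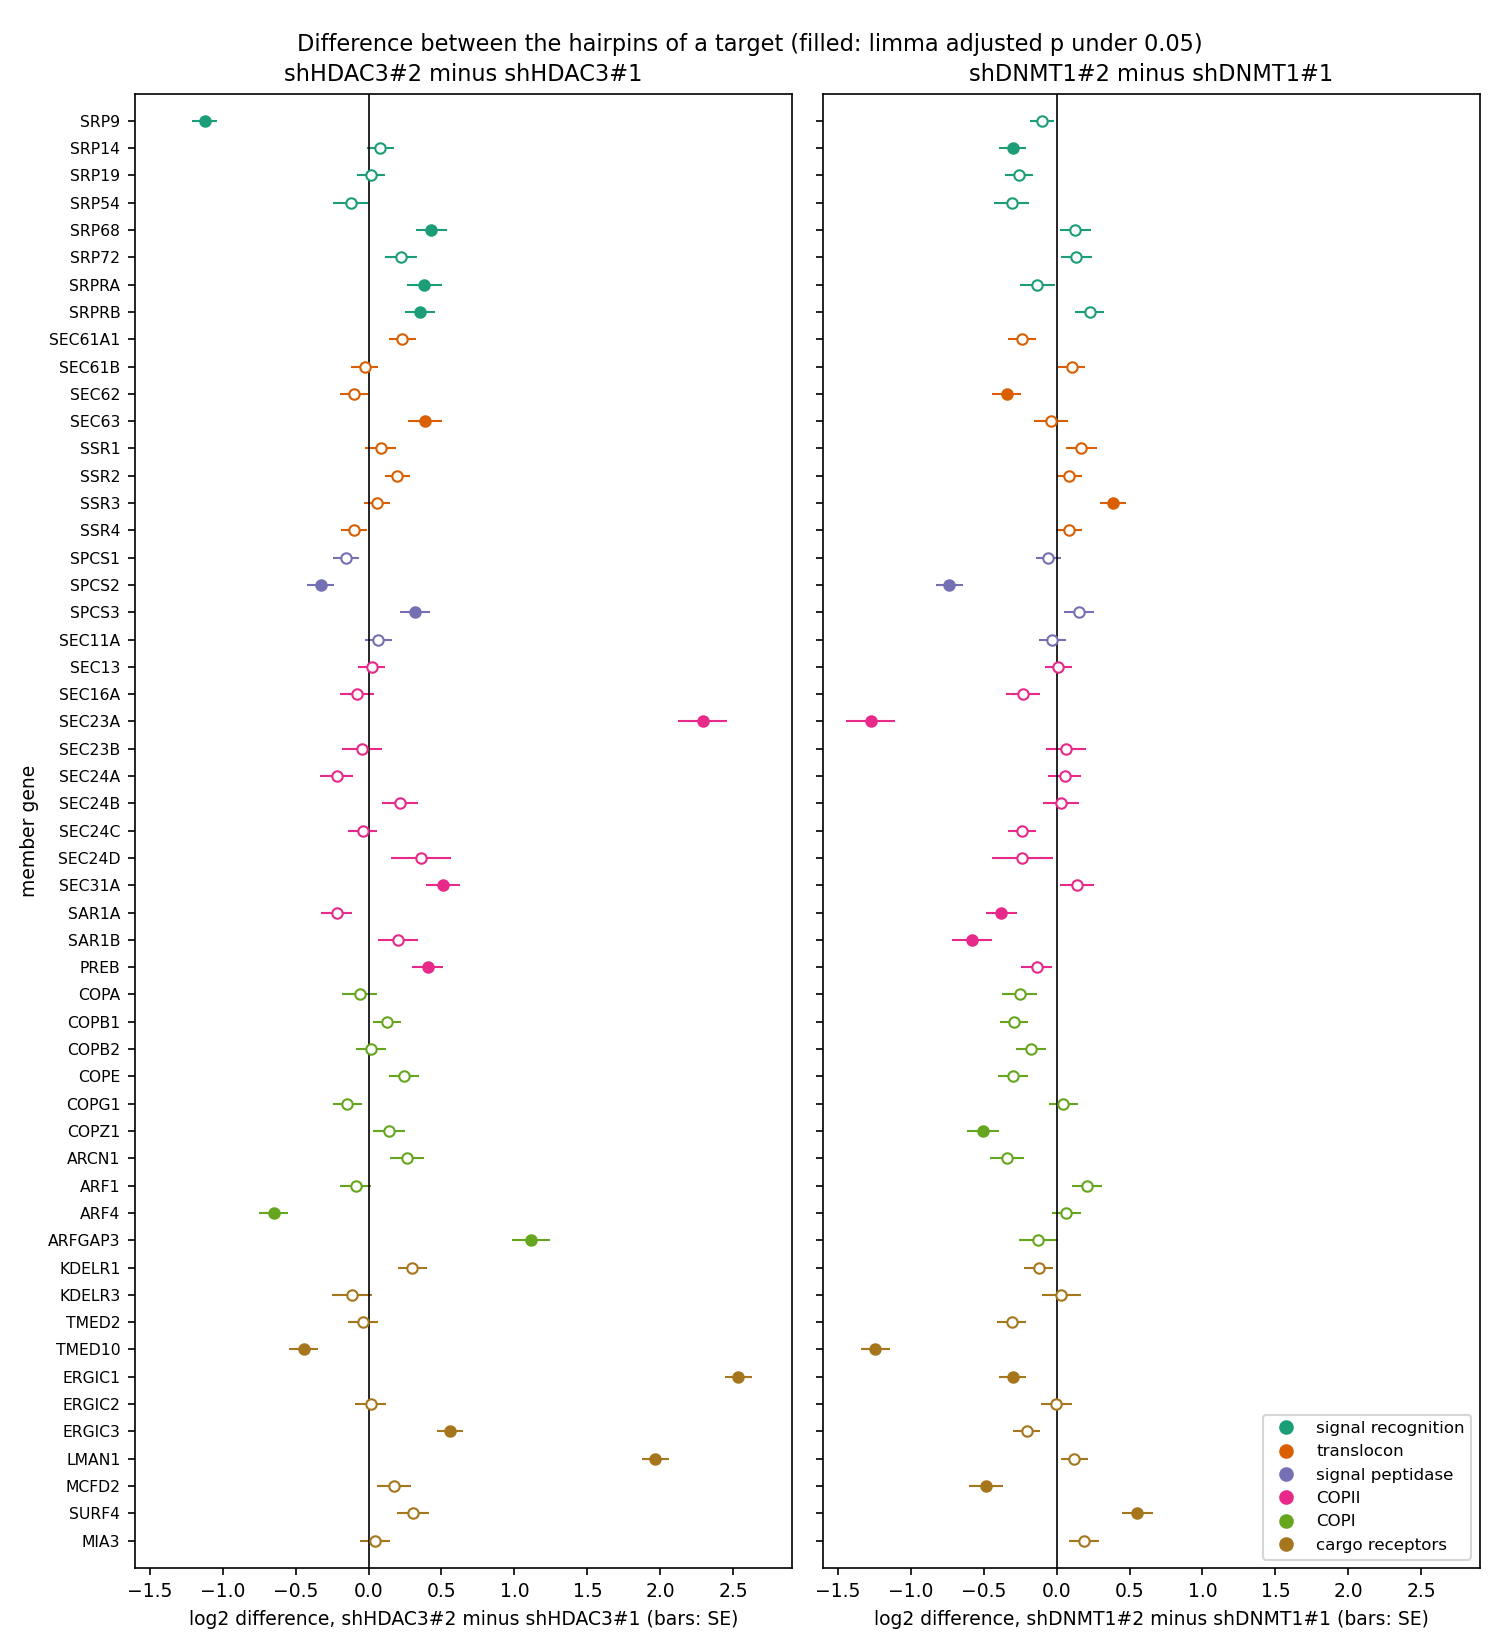
Difference between the hairpins of a target for the 53 members (vertical axis), HDAC3 on the left and DNMT1 on the right (horizontal axes, log2, second hairpin minus first, 2 arrays each), with limma's SE as bars and filled points at an adjusted p under 0.05. ERGIC1, SEC23A and LMAN1 stand out on the left at 2.53, 2.29 and 1.96, and SEC23A and TMED10 on the right at -1.27 and -1.24.

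Members with and without the promoter match were set side by side. Of the 12 members with the UPRE core, 7 fell with HDAC3 knockdown and 6 with DNMT1 knockdown, with medians of -0.40 and -0.31. Of the 36 measured members with a promoter but no match, 26 and 13 fell, with medians of -0.42 and -0.16. The difference between these sets was not tested. Of all genes, 15.3% fell with HDAC3 knockdown and 13.5% with DNMT1 knockdown. XBP1, the plasma cell regulator of secretory genes, read 10.40 and 10.46 in shLuc, 10.62 and 10.68 in shHDAC3#1, 10.41 and 10.50 in shHDAC3#2, 10.28 and 9.99 in shDNMT1#1, and 9.64 and 9.64 in shDNMT1#2. All DNMT1 arrays were below both controls and the HDAC3 arrays were not. It fell by 0.54 with DNMT1 knockdown (adjusted p 4.6e-05) and changed by 0.12 with HDAC3 knockdown (adjusted p 0.3). In the list of 12 regulators, 4 fell with HDAC3 knockdown and 6 with DNMT1 knockdown. Beside them, 15.3% and 13.5% of all genes fell, and 37.4% and 34.9% of the bright ones. ERN1, EIF2AK3 and ATF4, which sense or relay ER stress, fell with both, by 0.41 and 0.45, by 0.80 and 0.76, and by 0.37 and 0.42. The plasma cell factors PRDM1 and IRF4 fell with DNMT1 knockdown by 0.73 and 0.57. With the HDAC3 hairpins PRDM1 changed by 0.33 (a rise, adjusted p 0.044) and -0.30, and IRF4 by 0.08 and -0.26.

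Other genes of the same route were counted by list, and 15.3% of all genes fell with HDAC3 knockdown and 13.5% with DNMT1 knockdown. Of 21 other measured genes of translocation, membrane insertion and signal cleavage, 7 fell with HDAC3 knockdown (33.3%) and 5 with DNMT1 knockdown (23.8%). SEC11C, like SEC11A a catalytic subunit of the signal peptidase, fell by 0.65 with both HDAC3 hairpins and changed by 0.04 and -0.04 with the DNMT1 hairpins. TRAM1, which lines the translocon, fell by 0.41, 0.64 and 1.5 with shHDAC3#1, shHDAC3#2 and shDNMT1#2 and changed by -0.15 with shDNMT1#1. Of 23 other coat, ARF and exit-site genes, 3 fell with HDAC3 knockdown (13.0%), and with DNMT1 knockdown 4 fell (17.4%) and 3 rose, shares near those of all genes. Of these, TRAPPC4, a tether subunit, fell by 0.48 and 0.72 in the knockdowns, and TFG, which organises exit sites, fell by 0.46 with DNMT1 knockdown. The HDAC3 hairpins differed for TRAPPC4, at -0.79 with shHDAC3#1 and -0.17 with shHDAC3#2, while the DNMT1 hairpins gave -0.66 and -0.78.

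Of 27 SNAREs, Rabs and tethers, 5 fell (18.5%) and 1 rose with HDAC3 knockdown, and 3 fell (11.1%) and 2 rose with DNMT1 knockdown, again near all genes. SCFD1, which helps SNAREs to pair, fell by 0.56 with HDAC3 knockdown, and the Golgi tether GOLGB1 fell by 0.56 with DNMT1 knockdown. Of 16 other cargo receptors and retrieval genes, 8 fell with HDAC3 knockdown and 5 with DNMT1 knockdown (31.2%). The cornichon family members CNIH4 and CNIH1, which export transmembrane cargo, fell in both knockdowns, by 0.88 and 0.54 and by 0.45 and 0.71. With the hairpins in turn CNIH4 changed by -1.34, -0.42, -0.36 and -0.71 and CNIH1 by -0.57, -0.34, -0.47 and -0.94.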

How the data were processed

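Total RNA of 10 arrays in 5 groups of 2 was measured on an Affymetrix human expression array. The values were deposited by the authors as log2 RMA signals, which are background-corrected and normalized between arrays, per the submitters' processing notes; which version was used, and whether all arrays shared a run, is not given in the sources here. Their number limits the precision. Of 54675 probe sets, 41097 named 1 gene, 1801 several and 11777 none in the platform annotation, and the brightest probe set stood for each of 19775 genes. Of the members' chosen probe sets, 29 are of a kind that can cross-hybridize.

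In R 4.3.3, limma 3.58.1 (lmFit, eBayes with a trend) was fitted to all 5 groups, with 5 residual degrees of freedom, and p-values were adjusted over all genes. The fit was tested on simulated data. Values per array are given for up to 4 members per step with the largest change among those that passed, for members that passed with all 4 hairpins or in opposite directions, and for up to 5 with the largest difference between hairpins; outside the members, up to 2 genes per list are named. Alternatives were further quantile normalization, median centring, other choices of probe set, a filter on dim genes, blocks for replicate number and hairpin, and leaving out each array. The members and lists were chosen with earlier results of these data known.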

Additional observations from a re-analysis of the deposited data

Results flagged for a closer look

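Between the hairpins against HDAC3, members that passed limma's test of the difference and differed by at least 2-fold were ERGIC1, at 2.53 on the log2 scale (shHDAC3#2 minus shHDAC3#1, adjusted p 2.2e-13), SEC23A at 2.29 (3.1e-09), LMAN1 at 1.96 (7.4e-12), ARFGAP3 at 1.11 (2.4e-06) and SRP9 at -1.12 (4.6e-09). Between the hairpins against DNMT1 they were SEC23A, at -1.27 (shDNMT1#2 minus shDNMT1#1, adjusted p 1.3e-05), and TMED10 at -1.24 (1.3e-08). Both arrays of the lower hairpin were below both arrays of the other in each case. A second SEC23A probe set gave smaller differences, 0.57 between the HDAC3 hairpins and -0.36 between the DNMT1 hairpins. For TMED10 a second bright probe set gave -0.14 between the DNMT1 hairpins.

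Between the knockdowns, the members that differed by at least 2-fold were ARFGAP3, at 1.32 (DNMT1 minus HDAC3 knockdown, adjusted p 4.6e-09), LMAN1 at 1.15 (2.8e-10) and SEC24D at 1.05 (3.4e-05). Every DNMT1 array was above every HDAC3 array for ARFGAP3 and SEC24D, and for LMAN1 1 shDNMT1#1 array lay below the higher shHDAC3#2 array.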

How the results depend on the processing

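The number of members that passed moved as follows, in the order of the comparisons named, and the cause was not tested. Without probe sets that can cross-hybridize, 42 members were measured, and 26 passed with shHDAC3#1, 15 with shHDAC3#2, 24 with HDAC3 knockdown and 7 between the HDAC3 hairpins. With each gene's probe sets averaged, 6 passed with shDNMT1#1, 10 between the HDAC3 hairpins and 7 between the DNMT1 hairpins. With the hairpin as a random block, limma called 0 members in HDAC3 knockdown, DNMT1 knockdown and their difference. At an unadjusted p under 0.05 the counts were 28, 14 and 16, given without the share of all genes. Leaving out each array gave 25 to 40 members for shHDAC3#1, 12 to 25 for shHDAC3#2, 3 to 14 for shDNMT1#1, 17 to 27 for shDNMT1#2, 22 to 40 for HDAC3 knockdown, 8 to 27 for DNMT1 knockdown, 9 to 15 between the HDAC3 hairpins, 4 to 15 between the DNMT1 hairpins and 14 to 24 between the knockdowns. Of 710 leave-one-out values of the named members, 600 kept their call, 110 lost it and 0 changed direction. Of 1280 values under the other alternatives, 97 lost their call and 10 changed direction, and all 55 under the hairpin random block lost it. Of 143 calls, 73 were kept under every alternative except that block. For SPCS2 without cross-hybridizing probe sets, only a dim probe set was left, and its changes were 0.0650 with shHDAC3#1, 0.1024 with shDNMT1#2, 0.0154 and 0.0953 with HDAC3 and DNMT1 knockdown and 0.0141 between the DNMT1 hairpins. SSR3 then changed by 0.2680 with shHDAC3#1 and 0.0938 with HDAC3 knockdown. MCFD2 changed by 0.0073 with DNMT1 knockdown for the mean of its probe sets. Without shHDAC3#1, an alternative chosen after seeing the data as were leaving out shDNMT1#2 and the random block on the difference between knockdowns, that difference was -0.1877 for SEC23A and -0.4170 for ERGIC1. Deviations of arrays with the same replicate number correlated at -0.343 to 0.266, without a common sign. Such correlations cannot exclude pairing, and the labels do not say whether the numbers pair arrays. With the replicate block 39, 24, 11 and 25 members passed with the hairpins in turn, 38 and 23 with the knockdowns, 14 and 10 between hairpins and 21 between knockdowns.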
